A study of Mus musculus with 16 samples.

Results

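The first 12 h of exit from naive pluripotency were followed in mouse embryonic stem (ES) cells that had been kept in a medium called serum/LIF+2i. The comparison rests on 4 of the 16 libraries of the series, chosen by their titles: 2 from cells still in serum/LIF+2i (0 h) and 2 from cells collected 12 h after exit. All expressed genes were tested, which were 14288 of the 27179 genes in the table. Serum/LIF+2i is knockout DMEM with 10% fetal bovine serum, the cytokine leukaemia inhibitory factor (LIF), 3 µM of the GSK3 inhibitor CHIR99021 and 1 µM of the MEK inhibitor PD0325901, which together are called 2i. For exit the cells were washed and given a serum-free mix of equal parts DMEM and Neurobasal with N-2 and B-27 supplements, 2-mercaptoethanol and 2 mM glutamine, without LIF and without 2i. Serum, LIF and both inhibitors had thus been withdrawn and the base medium changed for 12 h, and the effects of these changes cannot be told apart from each other or from time in culture. The cells of all groups were adapted from serum/LIF for 3 passages, used for at most 9 passages and grown on gelatin, with no feeder cells named. The labels' protocol describes 24 and 40 h for cells from serum/LIF+2i, and the 12 h libraries were identified by their titles. Cells kept in serum-free 2i/LIF, with the same inhibitors and LIF in DMEM/F-12 and Neurobasal, were collected at 0 and 12 h after withdrawal of 2i and LIF from that medium (2 libraries each) and are used here for comparison. No cell line, genotype or clone is given in the sources used here, and the labels do not say that replicates were separate cultures, so p-values measure the spread between these libraries, which may be technical.

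Naive pluripotency is the state of the epiblast before implantation, held by a network of transcription factors that includes Nanog, Klf4, Esrrb and Tfcp2l1. In culture, GSK3 inhibition stabilises β-catenin and relieves the repression of genes bound by TCF proteins, MEK inhibition blocks ERK, which lies downstream of FGF4, and LIF acts through the receptor subunit gp130 (Il6st) and STAT3. When these supports are withdrawn, ES cells dismantle the naive network and pass through a formative state, marked by Otx2, Fgf5 and Pou3f1, before they become competent for germ layer fates. Serum supplies cholesterol and fatty acids bound to lipoproteins and albumin, retinol, hormones and lysophospholipids. When cells hold little sterol, the transcription factor SREBP2 (Srebf2) is released from the endoplasmic reticulum and drives the genes of cholesterol synthesis, whereas oxysterols activate LXR, which drives sterol export.

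The 4 libraries held 6946416 and 6852533 counts at 0 h and 7461814 and 9580136 counts at 12 h. The floor of 3 counts per library corresponded to between 0.313 and 0.438 per 1000000 of these totals, before the scaling given next. Fold bounds against the floor used the scaled totals. CPM is the count per 1000000 counts of the library, with totals scaled after normalization by the trimmed mean of M values (TMM), and values set side by side are for replicates 1 and 2 in that order. Where a gene is said to have risen or fallen by a value, the value is its log2 fold change. Replicates differed by more than sampling noise (chi-square per degree of freedom 1.89 at 0 h and 2.04 at 12 h, without ribosomal RNA genes). Each library was counted as a sample, although this spread does not show that replicates were separate cultures. Ribosomal RNA genes took 1.14% and 0.649% of counts at 0 h and 0.636% and 1.21% at 12 h. The 7 ES cell markers summed to 3637 and 3739 CPM at 0 h and 4231 and 4369 CPM at 12 h, and none was at 0. Summed markers of fibroblasts, which can be feeder cells, stood at 2.65 and 2.50 CPM at 0 h and 10.8 and 7.35 CPM at 12 h, with Postn, Dcn and Lum at 0 at both times. Primitive endoderm markers summed to 5.73 and 6.61 CPM at 0 h and 2.84 and 2.98 CPM at 12 h. In bulk RNA, fewer cells of a type and less RNA per cell cannot be told apart.

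After 12 h, 7309 genes (51.2% of those tested) differed from 0 h at an adjusted p under 0.05 in edgeR's quasi-likelihood test, 3611 higher (25.3%) and 3698 lower (25.9%). Most differences were small: the median absolute log2 fold change of the called genes was 0.56. At least 2-fold changes were found for 1103 genes that rose (7.72% of those tested) and 1025 that fell (7.17%), at least 4-fold changes for 493 and 352, and at least 16-fold changes for 126 and 70. Counts of list members below are read against these shares, and list medians against the median log2 fold change of 0.0 over all genes tested. Genes of the LIF/STAT3, Wnt and lysosome lists mostly fell, and those of the ERK, formative, retinoic acid and cholesterol synthesis lists mostly rose, with the counts given for each list below.

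**Figure D1:**
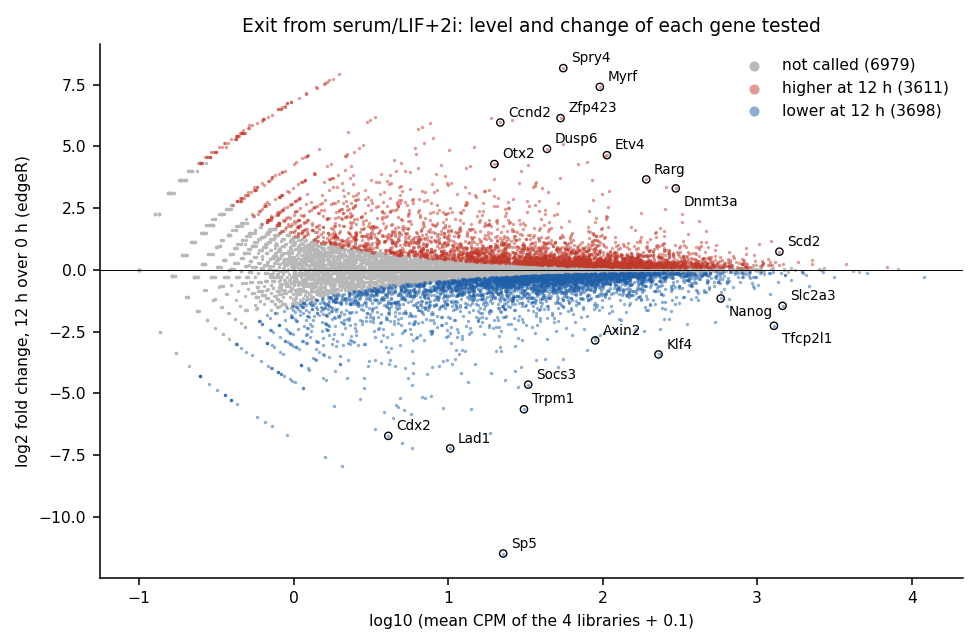
Log2 fold change at 12 h against 0 h in serum/LIF+2i (y axis, edgeR) by level (x axis, log10 of the mean CPM of the 4 libraries plus 0.1), with 1 point per tested gene. Called genes are coloured, 3611 higher and 3698 lower, and labelled genes include Sp5 at the bottom and Spry4 and Myrf at the top.

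**Figure D2:**
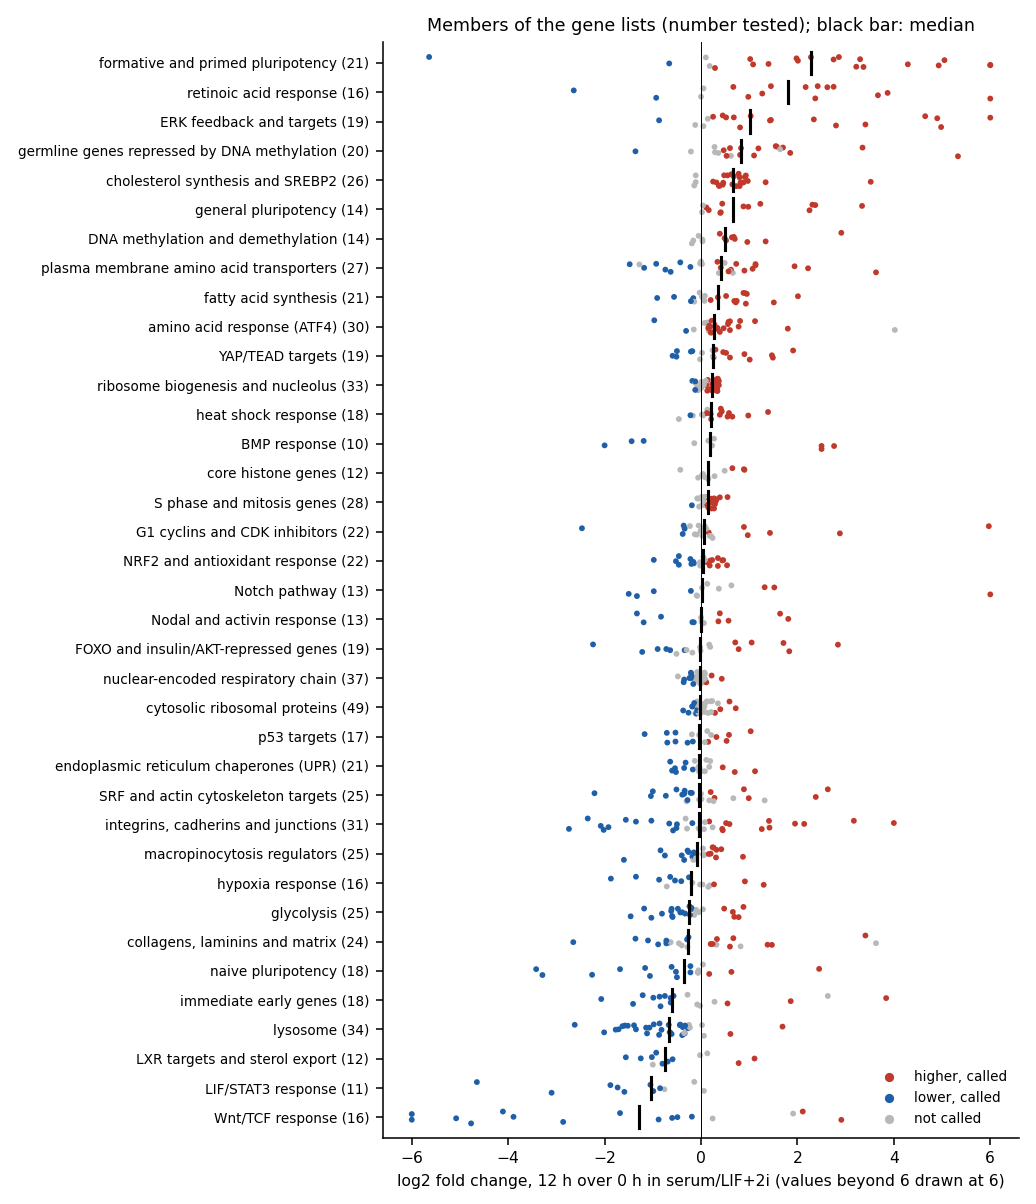
Log2 fold change at 12 h against 0 h in serum/LIF+2i (x axis, values beyond 6 drawn at 6) of the tested members of each gene list (rows, number tested in brackets), with 1 point per gene, coloured where called, and the median as a black bar. The lysosome list lies left of 0 with 27 of 34 members lower, and the cholesterol synthesis list right of 0 with 23 of 26 members higher.

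Transcripts of most tested Wnt target genes fell within 12 h. Of the 16 tested genes of the Wnt/TCF list (17 members), 12 fell and 2 rose (1 rose without 12 h replicate 1), with a median log2 fold change of -1.28 (-0.74 with the 6 genes at or under 3 counts in 1 group placed at their bound, and -2.26 when only these 4 libraries were fitted). Axin2 (Entrez Gene 12006), the scaffold of the β-catenin destruction complex and a feedback target of the pathway, stood at 155 and 158 CPM at 0 h and 22.4 and 21.0 CPM at 12 h, a log2 fold change of -2.86 ± 0.08 (SE; edgeR adjusted p = 3.94e-64). Both 12 h libraries lay far below both 0 h libraries. Sp5, a zinc finger transcription factor and direct β-catenin target, gave 48.8 and 41.6 CPM at 0 h and 0 and 0 CPM at 12 h, and the fall was at least 124.6-fold against the floor of 3 counts per library. Cdx1, a caudal homeobox factor, fell from 54.7 and 46.7 CPM to 3.92 and 2.13 CPM (log2 fold change -4.11), and its relative Cdx2 from 8.67 and 7.20 CPM to 0 and 0.106 CPM, at least 21.89-fold. T (brachyury), a mesoderm factor induced by Wnt, fell from 18.4 and 13.8 CPM to 0.946 and 1.17 CPM. Rnf43 and Znrf3, ubiquitin ligases that remove Wnt receptors from the cell surface, fell to different extents (log2 fold change -4.77, fitted near the floor, and -0.60). Ascl2, a basic helix-loop-helix factor, went against the rest of the list and rose from 1.03 and 1.47 CPM to 5.81 and 5.11 CPM; Zcchc12, the other riser, had fewer than 1 CPM in every library, and its call did not hold without replicate 1 of either time (edgeR adjusted p = 0.179 without that of 0 h and 0.165 without that of 12 h). The 8 mesoderm markers summed to 31.7 and 25.3 CPM at 0 h and 18.0 and 16.5 CPM at 12 h. Of the 3 tested, T fell as given and Eomes, another mesoderm factor, rose from 7.79 and 5.43 CPM to 11.8 and 10.4 CPM; the call of Eomes did not hold without 0 h replicate 2 (edgeR adjusted p = 0.0792). The 8 trophoblast markers summed to 38.5 and 39.8 CPM at 0 h and 18.8 and 20.3 CPM at 12 h, with 3 lower and 1 higher of 5 tested. Tfap2a, an AP-2 factor, held most of that fall, from 24.4 and 26.9 CPM to 6.76 and 9.79 CPM; Cdx2 fell too, and Ascl2 was the marker that rose. The part of these cell types in the result was not tested.

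The promoter of Sp5 is shown because it was the only 1 of 11 Wnt list genes with a RefSeq promoter window that held the TCF motif CTTTGAT on either strand. The window ran from 250 bases before to 50 bases after the annotated start, and 3.08% of all 10940 tested genes with a window held the motif. The stretch printed is the plus strand at chr2:70474773-70474872 (RefSeq, GRCm38.p6), from 150 to 51 bases before the start, and capitals mark the match.
Sp5: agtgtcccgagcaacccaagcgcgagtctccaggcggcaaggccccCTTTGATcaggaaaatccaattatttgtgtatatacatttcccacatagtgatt
A match describes the letters and not a bound site.

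LIF targets fell at the same time. Of the 11 tested genes of the LIF/STAT3 list (13 members), 8 fell and 0 rose, with a median log2 fold change of -1.05. Socs3 (Entrez Gene 12702), the feedback inhibitor of the LIF receptor complex, fell from 67.4 and 58.9 CPM to 2.57 and 2.45 CPM, a log2 fold change of -4.65 ± 0.16 (SE; edgeR adjusted p = 1.04e-51). Bcl3, an atypical IκB protein, fell from 50.7 and 45.4 CPM to 5.14 and 5.96 CPM, and Stat3 itself from 126 and 123 CPM to 33.4 and 34.3 CPM (log2 fold change -1.88). Junb, an AP-1 subunit, fell by 1.05 on the log2 scale. Of the receptor subunits, Il6st fell by 0.99 on the log2 scale, while Lifr stood at 105 and 112 CPM at 0 h and 109 and 118 CPM at 12 h and was not called. The kinases Pim1 and Pim3 had log2 fold changes of -0.85, called, and -0.14, not called.

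Most tested ERK feedback and target genes rose. Of the 19 tested genes of the ERK list (20 members), 15 rose and 1 fell, with a median log2 fold change of 1.03. Spry4 (Entrez Gene 24066), an inhibitor of receptor tyrosine kinase signalling, stood at 0.147 and 0.588 CPM at 0 h and 109.7 and 111 CPM at 12 h. Dusp6, a phosphatase that inactivates ERK, rose from 2.50 and 3.08 CPM to 85.5 and 82.7 CPM, a log2 fold change of 4.90 ± 0.14 (SE; edgeR adjusted p = 2.50e-62). Dusp4, a nuclear phosphatase of the same family, rose from 0.735 and 1.03 CPM to 30.4 and 26.5 CPM. Among ETS factors, Etv4 rose from 9.11 and 7.20 CPM to 205 and 204 CPM (log2 fold change 4.65), and Etv1 and Etv5 rose by 2.80 and 0.45. Myc rose from 6.91 and 5.58 CPM to 61.4 and 71.0 CPM. Of the other Sprouty inhibitors, Spry1 rose from 7.93 and 6.90 CPM to 13.0 and 11.1 CPM, whereas Spry2, with 69.5 and 66.1 CPM at 0 h and 62.2 and 62.6 CPM at 12 h, was not called. Emp1, a membrane protein, was the 1 member that fell (-0.87). Egr1, the best known immediate target of ERK, had 0 and 0.147 CPM at 0 h and 0.406 and 0.639 CPM at 12 h, at or near the floor in every library, so that no change was detectable at this depth.

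Most of the immediate early genes that could be tested fell. Of 18 tested members (24 in all), 10 fell and 3 rose, with a median log2 fold change of -0.60. Fos, Fosb, Egr2, Egr3, Egr4 and Npas4 were not tested, with 60, 37, 6, 3, 18 and 1 counts over all 16 libraries. Jun, an AP-1 subunit, fell from 3.53 and 3.82 CPM to 1.76 and 1.06 CPM, a log2 fold change of -1.41 ± 0.35 (SE; edgeR adjusted p = 4.00e-04). Atf3, a stress-induced factor, fell from 3.67 and 5.43 CPM to 1.49 and 0.745 CPM, and the RNA-binding protein gene Zfp36 fell by 0.99 on the log2 scale. In contrast, Gadd45g rose from 0.294 and 0.294 CPM to 4.05 and 4.68 CPM. Of the 25 tested SRF and actin cytoskeleton genes, 6 rose and 11 fell. Flnc, an actin cross-linker, rose from 7.35 and 3.52 CPM to 27.3 and 29.1 CPM, and Tpm4, a tropomyosin, fell from 125 and 130.3 CPM to 61.6 and 62.2 CPM; Actb was not called at 2635 and 2548 CPM at 0 h and 2606 and 2597 CPM at 12 h. Of 19 tested YAP/TEAD targets, 10 rose and 5 fell (3 fell without 0 h replicate 2). Ccn2 rose from 26.3 and 24.7 CPM to 40.0 and 33.5 CPM, while its relative Ccn1, with 20.0 and 20.3 CPM at 0 h and 20.7 and 19.3 CPM at 12 h, was not called.

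**Figure D3:**
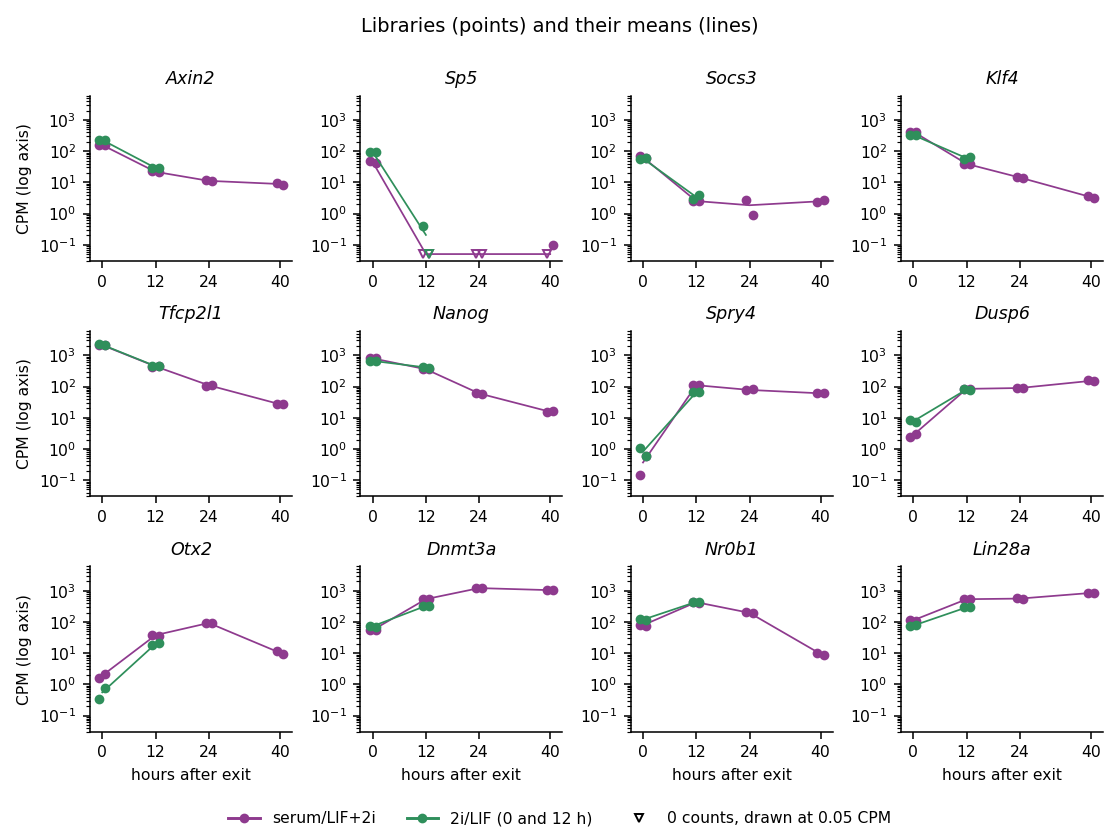
CPM (y axis, log scale) of 12 genes by hours after exit (x axis), for serum/LIF+2i at all 4 times and for 2i/LIF at the first 2, with 1 point per library, lines through the means of 2 libraries and triangles for libraries with 0 counts, drawn at 0.05 CPM. Axin2, Socs3 and Klf4 were lower and Dusp6, Otx2 and Dnmt3a higher at 12 h than at 0 h in every library shown.

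Most naive genes had fallen by 12 h. Of 18 naive genes, all tested, 11 fell and 3 rose, with a median log2 fold change of -0.36. Klf4 (Entrez Gene 16600), a Krüppel-like factor downstream of LIF, showed the largest fall of the list, from 421 and 419 CPM to 38.2 and 39.8 CPM, a log2 fold change of -3.42 ± 0.06 (SE; edgeR adjusted p = 1.65e-86). Tfcp2l1, a hub of the network, fell from 2130.0 and 2116 CPM to 437 and 446 CPM (log2 fold change -2.26), and Dppa3, a maternal factor that protects against DNA methylation, fell from 36.9 and 36.7 CPM to 4.33 and 3.30 CPM. Nanog stood at 802 and 800.3 CPM at 0 h and 352 and 365 CPM at 12 h, a log2 fold change of -1.16 ± 0.04 (SE; edgeR adjusted p = 7.92e-56). Esrrb fell from 915 and 904 CPM to 631 and 654 CPM (log2 fold change -0.50). Zfp42 (Rex1), a marker often used to time exit, was not called, with 443 and 424 CPM at 0 h and 447 and 443 CPM at 12 h, and Dppa5a and Tet2 were not called either. Nr0b1 (Dax1), an orphan nuclear receptor, rose from 80.8 and 76.2 CPM to 444 and 415 CPM, a log2 fold change of 2.45 ± 0.05 (SE; edgeR adjusted p = 1.82e-76). Gbx2, a homeobox factor, rose by 0.63 and Fgf4, the ligand that drives exit, by 0.17. At 24 h, in cells of the same medium, Klf4 stood at 14.3 and 14.2 CPM, Tfcp2l1 at 108 and 112 CPM, Nanog at 61.3 and 58.7 CPM, Esrrb at 242 and 239 CPM and Zfp42 at 265 and 261 CPM. Each of these was lower at 24 h than at 12 h, with edgeR adjusted p from 5.12e-81 to 7.70e-27, in a comparison that called 48.4% of all genes, 24.2% as lower, and shares the 12 h libraries.

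General pluripotency factors mostly rose. Of 14 tested, 12 rose and 0 fell, with a median log2 fold change of 0.66. Pou5f1 (Oct4) rose from 702 and 712 CPM to 932 and 953 CPM (log2 fold change 0.41), and Sox2 was not called at 422 and 384 CPM at 0 h and 413 and 414 CPM at 12 h. Utf1, a chromatin protein of the epiblast, rose most, from 45.7 and 46.1 CPM to 454 and 476 CPM, a log2 fold change of 3.34 ± 0.06 (SE; edgeR adjusted p = 1.08e-36). Lin28a, which binds let-7 precursors and keeps that microRNA family from maturing, rose from 118 and 108 CPM to 528 and 545 CPM. Dppa2 and its partner Dppa4 rose by 2.37 and 1.23.

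Formative genes had already risen at 12 h. Of 21 tested, 17 rose and 2 fell, with a median log2 fold change of 2.28 (2.01 with the 4 genes at the floor at 0 h placed at their bound). Otx2 (Entrez Gene 18424), which opens formative enhancers, rose from 1.62 and 2.20 CPM to 38.6 and 36.7 CPM, a log2 fold change of 4.29 ± 0.19 (SE; edgeR adjusted p = 3.27e-43). Pou3f1 (Oct6), a POU factor of the epiblast, rose from 1.47 and 1.76 CPM to 13.5 and 16.6 CPM. Fgf5, the classical marker of the epiblast after implantation, was not detected at 0 h and gave 2.03 and 1.92 CPM at 12 h, at least 4.474-fold above the floor, and reached 7.08 and 5.40 CPM at 24 h. Foxp1 rose from 4.55 and 7.93 CPM to 66.0 and 63.7 CPM, and Grhl2, which activates epithelial genes, from 5.88 and 6.76 CPM to 45.1 and 46.4 CPM. Zic2 and Sox4 rose by 2.28 and 2.75. The fallers were Nkx1-2 (from 27.5 and 27.5 CPM to 0.676 and 0.426 CPM), a homeobox gene, and Lef1 (from 11.8 and 12.2 CPM to 7.43 and 7.66 CPM), a TCF-family factor. The 8 neural markers summed to 62.6 and 51.0 CPM at 0 h and 101.6 and 101.2 CPM at 12 h, with 4 higher and 1 lower of 6 tested. Tubb3, a neuronal tubulin, held most of that rise, from 27.6 and 23.2 CPM to 56.8 and 55.7 CPM. Pax6, a neural transcription factor, rose from 0.147 and 0 CPM to 5.54 and 5.75 CPM, Map2, a microtubule protein of neurons, fell from 5.88 and 4.26 CPM to 1.22 and 1.28 CPM, and Olig2 was not called at 23.1 and 17.2 CPM at 0 h and 18.5 and 18.9 CPM at 12 h. The part of neural cells in the result was not tested.

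The genes of de novo DNA methylation rose. Dnmt3a rose from 54.8 and 54.5 CPM to 544 and 535 CPM, a log2 fold change of 3.30 ± 0.05 (SE; edgeR adjusted p = 1.52e-93), Dnmt3b from 167 and 154 CPM to 334 and 345 CPM, and Dnmt3l, their catalytically inactive cofactor, from 184 and 153 CPM to 667 and 667 CPM. Of the 14 tested genes of the separate list of DNA methylation and demethylation, 9 rose and 0 fell, with a median log2 fold change of 0.50. The genes of maintenance methylation were not called: Dnmt1 had 536 and 537 CPM at 0 h and 532 and 561 CPM at 12 h and Uhrf1 809 and 795 CPM at 0 h and 818 and 825 CPM at 12 h. Tet1, which oxidises methylcytosine, rose from 688 and 644 CPM to 1029 and 1045 CPM, and Kdm2b, which binds CpG islands, rose by 1.34. Germline genes known to be repressed by DNA methylation rose alongside the methylating enzymes. Of 20 tested (22 members), 13 rose and 1 fell (0 fell without 12 h replicate 1), with a median log2 fold change of 0.82. Dazl, an RNA-binding protein of germ cells, rose from 14.6 and 10.6 CPM to 29.2 and 28.2 CPM, Ddx4 (Vasa) from 3.67 and 4.26 CPM to 11.6 and 11.7 CPM, and the testis protease gene Prss50 from 0.294 and 0.441 CPM to 15.9 and 15.01 CPM, at least 35.12-fold against the floor.

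Most tested genes of the retinoic acid list rose. Of 16 tested (19 members), 12 rose and 2 fell (1 fell without 0 h replicate 1), with a median log2 fold change of 1.81 (1.36 with the 4 genes at the floor at 0 h placed at their bound). Requiring a mean of at least 5 CPM left 7 that rose, because several members were near the floor. Cyp26a1, Cyp26b1 and Rarres1 had too few counts to be tested (29, 45 and 2 over all 16 libraries). Rarg (Entrez Gene 19411), a retinoic acid receptor, rose from 27.3 and 28.5 CPM to 359 and 350.1 CPM, a log2 fold change of 3.67 ± 0.06 (SE; edgeR adjusted p = 3.95e-89), and Rara by 0.98. Crabp2, which carries retinoic acid to its receptors, rose from 0.441 and 0.441 CPM to 6.49 and 6.81 CPM, at least 15.09-fold against the floor. Dhrs3, which turns retinal back to retinol, rose from 0.735 and 1.62 CPM to 8.24 and 7.77 CPM (log2 fold change 2.75). Stra8, induced by retinoic acid before meiosis, rose from 0.882 and 1.47 CPM to 5.68 and 6.49 CPM. Rarb, the receptor gene with the best known response element, gave 0.147 and 0.294 CPM at 0 h and 1.22 and 1.28 CPM at 12 h; its call did not hold without 0 h replicate 1 (edgeR adjusted p = 0.0695). Aldh1a2, which makes retinoic acid, fell from 6.32 and 6.46 CPM to 1.08 and 0.958 CPM.

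The promoter of Rarb is shown because it held the direct repeat bound by retinoic acid receptors, which was found in 1 of 12 genes of the list and in 0.0457% of all tested genes with a window. The stretch printed is the minus strand at chr14:16575497-16575576 (RefSeq, GRCm38.p6), from 100 to 21 bases before the start, with the match, searched on both strands, in capitals.
Rarb: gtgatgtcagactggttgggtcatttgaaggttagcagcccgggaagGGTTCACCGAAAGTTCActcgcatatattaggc

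Genes of cholesterol synthesis were higher at most steps of the pathway 12 h after exit. Of 26 genes, all tested, 23 rose and 0 fell (1 fell without 12 h replicate 2), with a median log2 fold change of 0.67. At the head of the pathway, Hmgcs1 (Entrez Gene 208715), which makes HMG-CoA, rose from 377 and 403 CPM to 684 and 675 CPM, a log2 fold change of 0.80 ± 0.04 (SE; edgeR adjusted p = 4.70e-41). Sqle, which oxidises squalene, rose from 177 and 181 CPM to 276 and 286 CPM (log2 fold change 0.65). In the later steps, Lss, which closes the sterol ring, rose from 58.0 and 59.3 CPM to 150.2 and 147 CPM, and Cyp51, the lanosterol demethylase, from 96.4 and 101 CPM to 189 and 186 CPM. Dhcr7, which makes cholesterol from its direct precursor, rose from 62.0 and 68.6 CPM to 117 and 115 CPM (log2 fold change 0.83). The factor itself, Srebf2, rose by 0.37, and Insig1, which retains it in the endoplasmic reticulum, by 0.38. Ebp, Tm7sf2 and Ggps1 were not called.

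The same genes were read in 2i/LIF cells, which had no serum before exit; levels at 0 h are given side by side and were not tested between media. In these cells Hmgcs1 had 510.3 and 502 CPM before exit and 711 and 719 CPM after 12 h. Lss had 87.2 and 93.3 CPM before exit and 158 and 161 CPM after 12 h, and Cyp51 184 and 189 CPM and 255 and 259 CPM. The same 26 genes had a median log2 fold change of 0.43 in 2i/LIF, with 20 higher and 3 lower, against backgrounds of 21.0% of genes higher and 23.7% lower there. The 12 h effect was more positive in serum/LIF+2i for 13 of the 26 genes and more negative for 0 by the interaction test, which called 9.20% of all genes (4.80% with a more positive effect in serum/LIF+2i, 4.40% with a more negative one). Among the 13, the call of Msmo1 was lost with DESeq2 (adjusted p = 0.129) and without ribosomal RNA genes (edgeR adjusted p = 0.0705). The differences were 0.52 ± 0.08 on the log2 scale for Lss, 0.46 ± 0.07 for Cyp51 and 0.30 ± 0.05 for Hmgcs1.

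Fatty acid synthesis followed in part. Of 21 genes, 12 rose and 4 fell (2 without 12 h replicate 2), with a median log2 fold change of 0.35. Scd1 (Entrez Gene 20249), the desaturase that makes oleate, rose from 261 and 294 CPM to 521 and 529 CPM. Its log2 fold change was 0.92 ± 0.04 (SE), with an edgeR adjusted p = 7.18e-44. In 2i/LIF cells Scd1 had 561 and 561 CPM before exit and 568 and 585 CPM after 12 h, and levels were not tested between media. In serum/LIF+2i Scd2 rose by 0.74, and Fads2, which desaturates polyunsaturated fatty acids, by 0.88. Srebf1, the factor of this pathway, rose from 89.0 and 97.5 CPM to 120.0 and 118 CPM, while in 2i/LIF it fell from 152 and 149 CPM to 119 and 122 CPM. The main chain-building enzymes Acly and Fasn were not called, at 860.3 and 950.4 CPM at 0 h and 933 and 968 CPM at 12 h for Fasn, whereas Acaca rose by 0.72. Me1, which supplies NADPH, fell by 0.91 on the log2 scale. In this list 12 of 21 genes had a more positive effect in serum/LIF+2i than in 2i/LIF and 0 a more negative one, among them Scd1 by 0.88 ± 0.05, Scd2 by 0.69 ± 0.06, Srebf1 by 0.67 ± 0.08 and Fads2 by 0.56 ± 0.08. The interaction call of Acly was lost with scaling by library size only and without ribosomal RNA genes (edgeR adjusted p = 0.061 and 0.109). LXR targets and sterol export genes moved the other way: of 12 tested (14 members), 7 fell and 2 rose, with a median log2 fold change of -0.74. Apoe fell from 537 and 549 CPM to 289 and 280.5 CPM, and the exporter Abca1 from 19.2 and 17.9 CPM to 10.9 and 12.0 CPM. Abcg1, another sterol exporter, rose from 4.85 and 4.85 CPM to 7.70 and 8.84 CPM in serum/LIF+2i. In 2i/LIF it fell from 16.7 and 17.2 CPM to 9.46 and 11.8 CPM, a difference of 1.45 ± 0.28 between the media. The list also fell in 2i/LIF, with 8 of 12 genes lower, 1 higher and a median log2 fold change of -0.70. The effect was more positive in serum/LIF+2i for 1 gene, more negative for 3 and without a called difference for 8. Among the 3, DESeq2 did not call the difference for Npc2 and Pltp (adjusted p = 0.267 and 0.0831).

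**Figure D4:**
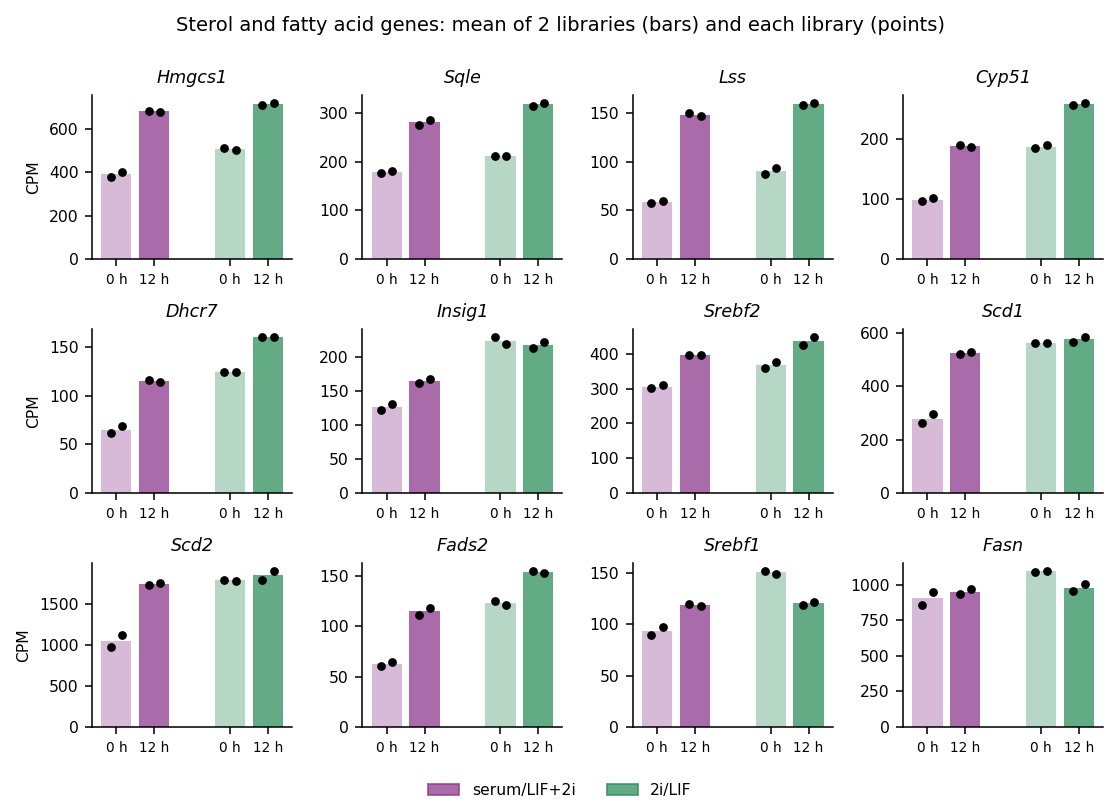
CPM (y axis, linear from 0) of 12 sterol and fatty acid genes at 0 and 12 h in serum/LIF+2i and in 2i/LIF (x axis), with bars for the mean of 2 libraries and 1 point per library. Scd1 and Srebf1 stood lower in serum/LIF+2i than in 2i/LIF before exit, and at 12 h both lay near the 2i/LIF level.

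Promoters of the sterol genes are shown because nearly all of them held the box CCAAT, the site of NF-Y, which acts beside SREBP2 at sterol genes. On either strand CCAAT was found in 17 of 18 cholesterol genes with a window (94.4%), in 12 of 18 fatty acid genes (66.7%) and in 43.3% of all tested genes with a window. The sterol element TCACNCCAC was found in 1 of the 18 cholesterol genes, Hmgcs1 (5.56%), in 1 of the 18 fatty acid genes, Acsl1 (5.56%), and in 1.47% of all. The stretches are the plus strands at chr13:119690101-119690330 for Hmgcs1, from 250 to 21 bases before its start, and chr7:143830094-143830193 for Dhcr7, from 120 to 21 bases before its start (RefSeq, GRCm38.p6). Capitals mark CCAAT, its reverse complement ATTGG and, in Hmgcs1, the sterol element TCACCCCAC.
Hmgcs1: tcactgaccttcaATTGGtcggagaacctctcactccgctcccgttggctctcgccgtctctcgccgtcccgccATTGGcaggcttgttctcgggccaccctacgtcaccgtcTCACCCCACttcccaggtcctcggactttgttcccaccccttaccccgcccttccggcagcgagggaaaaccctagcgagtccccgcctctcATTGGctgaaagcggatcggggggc
Dhcr7: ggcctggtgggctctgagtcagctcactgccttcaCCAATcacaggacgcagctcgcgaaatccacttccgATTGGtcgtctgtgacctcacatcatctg
The matches are descriptions of letters, and binding was not measured.

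Amino acid uptake is the subject of the series' title, and its transporter genes changed in both directions. Of 27 tested plasma membrane amino acid transporters (33 members), 12 rose and 7 fell, with a median log2 fold change of 0.41. Slc7a3 (Entrez Gene 11989), a cationic amino acid transporter, rose from 138 and 130.0 CPM to 501 and 529.6 CPM, a log2 fold change of 1.94 ± 0.04 (SE; edgeR adjusted p = 7.42e-73). Slc38a2 (SNAT2), which carries small neutral amino acids, rose from 269.6 and 269.8 CPM to 588 and 589.9 CPM, and Slc1a3, a glutamate transporter, from 5.44 and 6.32 CPM to 25.4 and 28.9 CPM. Slc7a7, the light chain of a system y+L exchanger, rose from 10.9 and 14.7 CPM to 156 and 161 CPM. The large neutral amino acid transporter Slc7a5 (LAT1) and its heavy chain Slc3a2 rose by 0.73 and 0.62, and the glutamine transporter Slc1a5 (ASCT2) fell by 0.22 on the log2 scale. Slc7a1, Slc6a6 and Slc43a2 were not called. Slc1a1, another glutamate transporter, fell from 7.49 and 4.85 CPM to 1.62 and 2.66 CPM, and Slc36a1, a proton-coupled transporter, by 0.74 on the log2 scale.

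Of 30 tested ATF4 response genes (31 members), 21 rose and 2 fell (1 fell without 0 h replicate 2 or either 12 h replicate), with a median log2 fold change of 0.28, so most changes were small. Chac1, which breaks down glutathione, rose from 6.46 and 9.11 CPM to 28.0 and 26.6 CPM, and Trib3, a pseudokinase that restrains ATF4, from 37.2 and 35.5 CPM to 63.9 and 63.4 CPM. Atf4 itself rose by 0.34. Phgdh and Shmt2, enzymes of serine and one-carbon metabolism, rose by 0.39 and 0.57. Asns, which makes asparagine and is a standard marker of this response, fell from 1592 and 1634 CPM to 819 and 828 CPM, a log2 fold change of -0.97 ± 0.04 (SE; edgeR adjusted p = 1.24e-46), and Ddit3 (CHOP) was not called at 10.4 and 10.7 CPM at 0 h and 11.8 and 13.5 CPM at 12 h. The effect was more positive in serum/LIF+2i than in 2i/LIF for 9 of these genes, 4 without serum/LIF+2i 0 h replicate 1 and 5 without 2i/LIF 12 h replicate 1. Macropinocytosis regulators, which serve bulk uptake of fluid, divided into 8 that rose and 10 that fell (6 without 12 h replicate 1) of 25 tested. Rac1, which drives membrane ruffles, rose from 159 and 140.3 CPM to 188 and 186 CPM, whereas the sorting nexins Snx1 and Snx18 fell by 0.75 and 0.84 on the log2 scale.

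Most lysosome genes fell. Of 34 tested (35 members), 27 fell and 2 rose, with a median log2 fold change of -0.66. Hexa (Entrez Gene 15211), the α subunit of hexosaminidase, fell most, from 105 and 112 CPM to 17.8 and 17.6 CPM, a log2 fold change of -2.62 ± 0.09 (SE; edgeR adjusted p = 1.61e-54). Lamp2, a membrane protein of the lysosome, fell from 198 and 208 CPM to 54.9 and 46.9 CPM, and the cathepsins Ctsl, Ctsb and Ctsd by 1.39, 1.63 and 0.61. The V-ATPase subunit gene Atp6v1a fell by 0.64, and Atp6v1h was not called. Scarb2 (LIMP-2), the carrier of glucocerebrosidase, rose by 0.61, and Lipa, which hydrolyses cholesteryl esters in the lysosome, rose from 1.76 and 2.35 CPM to 7.43 and 6.07 CPM. The list fell in 2i/LIF too, with 27 of 34 genes lower, 1 higher and a median log2 fold change of -0.64. The effect was more negative in serum/LIF+2i for 10 genes, more positive for 0 and without a called difference for 24. DESeq2 did not call the difference for Lamp2, Scarb2 and Ctsb (adjusted p = 0.175, 0.105 and 0.0831). Scarb2 is counted among the 10 although it rose in serum/LIF+2i. Among the 10, Hexa went from 144 and 154 CPM to 43.3 and 45.6 CPM in 2i/LIF. Glb1, β-galactosidase, went from 157 and 167 CPM to 85.1 and 86.9 CPM there. Their effects differed between the media by -0.88 ± 0.12 and -0.67 ± 0.09 on the log2 scale.

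Most glycolysis genes fell and stress pathways were mixed. Of 25 glycolysis genes, 16 fell and 5 rose, with a median log2 fold change of -0.24 (-0.37 without 0 h replicate 2). Slc2a3 (GLUT3), a glucose transporter, fell from 2100.0 and 2174 CPM to 777 and 781 CPM, and Tpi1, triosephosphate isomerase, from 514 and 505 CPM to 288 and 292 CPM. Hk1 and Hk2, hexokinases, fell by 1.03 and 0.43, and Slc2a1 (GLUT1) was not called at 168 and 152 CPM at 0 h and 156 and 172 CPM at 12 h. Of 16 tested hypoxia genes, 7 fell and 3 rose: Bhlhe40 fell from 11.8 and 7.05 CPM to 2.97 and 2.23 CPM, Pdk1 rose from 52.6 and 41.1 CPM to 110.0 and 119.6 CPM, and Vegfa was not called at 38.8 and 39.5 CPM at 0 h and 42.2 and 35.8 CPM at 12 h. Among 21 endoplasmic reticulum chaperone and stress genes, 7 fell and 3 rose. Hsp90b1 and Calr, luminal chaperones, fell by 0.64 and 0.52, the factor Xbp1 rose from 44.4 and 48.5 CPM to 96.1 and 106 CPM, and Hspa5 (BiP) was not called at 704 and 647 CPM at 0 h and 660.5 and 655 CPM at 12 h. Of 18 heat shock genes, 11 rose and 1 fell, with Hspa8 and Hsph1 higher by 0.55 and 0.65. Of 22 NRF2 and antioxidant genes, 9 rose and 8 fell (5 fell without 12 h replicate 1).

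BMP and Nodal targets were mixed. Of 10 tested BMP response genes (18 members), 3 rose and 3 fell. Id3, an inhibitor of helix-loop-helix factors, rose from 8.38 and 4.11 CPM to 39.2 and 45.2 CPM, a log2 fold change of 2.76 ± 0.16 (SE; edgeR adjusted p = 1.09e-26), and Id1 from 2.50 and 3.52 CPM to 17.4 and 16.9 CPM, whereas Id2 fell from 12.6 and 10.7 CPM to 5.68 and 4.68 CPM. The ligand Bmp4 rose from 7.49 and 6.90 CPM to 44.2 and 37.9 CPM. Of 13 tested Nodal and activin genes, 5 rose and 5 fell. The secreted inhibitors Lefty1 and Lefty2, which bind Nodal, went in opposite directions, Lefty1 from 7.05 and 6.61 CPM to 20.7 and 21.8 CPM and Lefty2 from 67.2 and 78.6 CPM to 28.2 and 29.6 CPM. The convertase Furin, which processes Nodal, fell by 1.19, and Tdgf1 (Cripto), its co-receptor, was not called at 441 and 375 CPM at 0 h and 411 and 417 CPM at 12 h. In the Notch pathway, 3 of 13 tested genes rose and 4 fell (2 fell without 12 h replicate 1). The ligand gene Dll1 was at 0 at 0 h and at 3.38 and 1.92 CPM at 12 h, at least 6.007-fold above the floor, while Jag1, another ligand, fell from 35.7 and 38.6 CPM to 12.6 and 13.5 CPM and the target Hes1 from 53.04 and 44.8 CPM to 19.06 and 19.7 CPM.

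Adhesion genes changed in both directions. Of 24 tested matrix genes (28 members), 8 rose and 9 fell. Lama1, a laminin chain of the basement membrane, fell from 156 and 173 CPM to 23.8 and 28.1 CPM, and Fn1, fibronectin, from 2596 and 2704 CPM to 1638 and 1690.0 CPM, whereas the collagen IV gene Col4a1 rose from 12.3 and 12.9 CPM to 33.2 and 32.7 CPM and the protease inhibitor gene Timp3 from 0.882 and 0.734 CPM to 9.87 and 7.77 CPM. Of the 4 tested fibroblast markers, whose sum is given above, Thy1, a surface glycoprotein, rose from 1.18 and 1.47 CPM to 7.84 and 6.49 CPM and held most of the rise of that sum. Col1a1 and Col1a2, collagen genes of fibroblasts, were not called. The part of such cells in these changes was not tested. Of 31 tested integrin, cadherin and junction genes, 12 rose and 13 fell. Cdh1 (E-cadherin) fell from 551 and 563 CPM to 387 and 396 CPM and Cdh3 (P-cadherin) rose from 14.7 and 22.3 CPM to 69.3 and 73.0 CPM, while Cdh2 (N-cadherin), a member of the formative list, was not called. Itga5, the fibronectin receptor subunit, rose from 46.6 and 49.6 CPM to 124 and 130.1 CPM, and the claudin genes Cldn3, Cldn4 and Cldn7 fell by 2.08, 1.03 and 1.56.

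Most S phase and mitosis genes rose. Of 28 S phase and mitosis genes, 16 rose and 1 fell, with a median log2 fold change of 0.14, and Mki67 rose by 0.22. Of 22 genes of G1 cyclins, CDK inhibitors and their partners, 6 rose and 4 fell. Ccnd2 (Entrez Gene 12444), a D-type cyclin, rose from 0.588 and 0.734 CPM to 43.9 and 41.3 CPM, a log2 fold change of 5.97 ± 0.24 (SE; edgeR adjusted p = 2.12e-41), Ccnd3 by 0.89 and Ccne1 by 0.97. The CDK inhibitor gene Cdkn1a (p21) fell from 303 and 323 CPM to 60.7 and 52.8 CPM, and Cdkn1c (p57) rose from 1.91 and 0.881 CPM to 9.33 and 11.2 CPM. Of 33 ribosome biogenesis genes, 22 rose and 3 fell (0 or 1 without 0 h replicate 2 or either 12 h replicate), with a median log2 fold change of 0.23. Of 49 ribosomal protein genes, 4 rose and 8 fell (4 fell without 0 h replicate 2 or 12 h replicate 1), fewer than among all genes in each direction. Of 37 respiratory chain genes, 3 rose (1 without 12 h replicate 1) and 8 fell (5 with DESeq2). Of 17 tested p53 targets 5 rose and 7 fell, and of 19 tested FOXO and insulin-repressed genes 6 rose and 6 fell. In a histone list (23 members), which includes linker histones and histone variants, 3 of 12 tested genes rose and 0 fell. DESeq2 did not call the rise of H4c9, 1 of these 3 (adjusted p = 0.0794).

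Outside the lists, the largest rises among called genes (mean CPM of 5 or more, every library above 3 counts, groups without overlap) were led by Myrf, a membrane-bound transcription factor, from 1.03 and 1.18 CPM to 186 and 194 CPM (7.41), Zfp423, a zinc finger factor, from 1.62 and 1.32 CPM to 101 and 109 CPM, and Cntfr, the ciliary neurotrophic factor receptor, from 0.882 and 0.588 CPM to 49.2 and 51.8 CPM. Inhbb, an activin subunit, rose from 2.79 and 1.18 CPM to 40.3 and 38.6 CPM, and Slc39a14, a zinc and iron importer, from 8.23 and 6.61 CPM to 149.8 and 154 CPM. The largest falls were led by Trpm1, a cation channel gene, from 60.8 and 60.1 CPM to 1.08 and 1.28 CPM (-5.65), and included Spic, an ETS factor of the naive state, from 27.5 and 23.6 CPM to 1.22 and 0.958 CPM, Rasgrp1, an activator of Ras, from 22.5 and 23.4 CPM to 0.676 and 1.70 CPM, and Tfap2c, an AP-2 factor, from 56.4 and 54.3 CPM to 3.38 and 3.73 CPM. Cyp1a1, the classical target of the aryl hydrocarbon receptor, fell from 9.84 and 9.55 CPM to 0.676 and 0.532 CPM. Among genes that ended at or under 3 counts in both 12 h libraries, the highest at 0 h besides Sp5 were Lad1, a basement membrane anchor gene, at 20.0 and 20.6 CPM and at least 55.94-fold lower, Htr5a, a serotonin receptor gene, at 12.6 and 9.99 CPM and at least 31.21-fold lower, and Lcp1, L-plastin, at 12.3 and 9.84 CPM and at least 30.6-fold lower. Among genes that started there, Crocc2 reached 15.5 and 14.1 CPM and Cass4, an adaptor of the CAS family, 12.0 and 14.1 CPM, at least 33.58-fold and 29.59-fold higher.

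By the difference in mean CPM, which grows with the length and abundance of a transcript, the largest losses included Tfrc, the transferrin receptor, from 892 and 833 CPM to 208 and 192 CPM (-2.11), Ckb, creatine kinase B, from 931 and 950.4 CPM to 344 and 332 CPM, and Eef2, elongation factor 2, from 3314 and 3529 CPM to 2758 and 2880.0 CPM (-0.28). The largest gains included Actn4, an actin cross-linker, from 598 and 588 CPM to 1090.0 and 1106 CPM, Dnmt3l and Scd2, both given above, and Ncl, nucleolin, from 3544 and 3385 CPM to 4139 and 4008 CPM (0.23). The loss of Eef2 and the gain of Ncl were each below 2-fold and rank high because of their level.

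Exit from 2i/LIF, which removed LIF and 2i but involved no serum, changed many of the same genes. In that medium 6382 genes were called at 12 h (44.7%), 2999 higher and 3383 lower. The 2 comparisons share no libraries. Of the genes called in serum/LIF+2i, 68.19% were also called in 2i/LIF, and of those called in 2i/LIF 78.09% were called in serum/LIF+2i, which makes 4984 genes. Of these, 4921 (98.74%) moved in the same direction and 63 in opposite directions. Among Wnt and LIF targets, the 2i/LIF cells showed falls of Axin2 and Socs3 too (log2 fold changes -2.98 and -4.10), with no called difference between the media (interaction log2 0.13, SE 0.12, and -0.55, SE 0.33). In the ERK list, 8 of 19 genes had a more positive effect in serum/LIF+2i (5 with DESeq2) and 0 a more negative one. Dusp6 stood at 8.27 and 7.14 CPM and 84.2 and 77.7 CPM in 2i/LIF and differed by 1.51 ± 0.26, and Etv4 at 13.1 and 13.4 CPM and 144 and 144 CPM and differed by 1.21 ± 0.17.

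The interaction test called 1315 genes, 686 with a more positive effect in serum/LIF+2i and 629 with a more negative one. This split depended on scaling: the share more positive was 52.2%, and 41.3% when ribosomal RNA genes were left out. Among genes of at least 5 CPM with every library above 3 counts, the most positive differences included those of Porcn, which lipid-modifies Wnt proteins, at 2.23 ± 0.19 (7.05 and 4.85 CPM to 65.4 and 68.9 CPM in serum/LIF+2i and 29.1 and 23.9 CPM to 65.8 and 60.8 CPM in 2i/LIF), and Rac2, a small GTPase, at 2.08 ± 0.45. With no limit on level, 7 of 16 retinoic acid genes had a more positive effect in serum/LIF+2i and 0 a more negative one. Stra8 differed by 2.48 ± 0.43 and Rarg by 1.49 ± 0.09. Rarg went from 64.3 and 69.0 CPM to 299 and 303 CPM in 2i/LIF, so that the lower 0 h level was in serum/LIF+2i. Among genes of at least 5 CPM with every library above 3 counts, the most negative difference was that of Dnmt3l, -3.17 ± 0.24. In 2i/LIF Dnmt3l rose from 8.62 and 6.38 CPM to 271 and 259.9 CPM, against the far higher 0 h level in serum/LIF+2i given above. Dnmt3a differed in the other direction, by 1.13 ± 0.07, with 76.9 and 68.5 CPM and 329.5 and 325 CPM in 2i/LIF. Trpm1, Usp44 and Icosl also had more negative effects, by -1.83 ± 0.31, -1.78 ± 0.37 and -1.83 ± 0.30. In the naive list, 6 of 18 genes had a more negative effect in serum/LIF+2i, 3 a more positive one and 9 no called difference, with a median difference of -0.05 on the log2 scale. Not all of the 6 were larger falls: Fgf4 rose by 0.17 against 0.44 in 2i/LIF, and Zfp42 rose only in 2i/LIF (0.23). DESeq2 did not call the difference for Zfp42 and Prdm14 (adjusted p = 0.118 and 0.176). Among the 3, Nr0b1 rose by 2.45 against 1.9 in 2i/LIF. The fall was larger in serum/LIF+2i for Klf4 (-0.96 ± 0.09), Dppa3 (-1.26 ± 0.22) and Nanog (-0.46 ± 0.05). The effect on Klf5 was less negative there, by 0.28 ± 0.09, but DESeq2 did not call it (adjusted p = 0.228), and the call was lost without serum/LIF+2i 0 h replicate 2, serum/LIF+2i 12 h replicate 1, 2i/LIF 0 h replicate 1 or either 2i/LIF 12 h replicate (edgeR adjusted p from 0.0534 to 0.198). Tfcp2l1 (interaction log2 0.01, SE 0.05) and Esrrb (-0.04, SE 0.05) had no called difference.

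All 63 genes that moved in opposite directions had a called interaction. Besides Srebf1 and Abcg1 they included Gbx2, which rose in serum/LIF+2i and fell from 52.7 and 50.6 CPM to 37.3 and 33.8 CPM in 2i/LIF (difference 1.17 ± 0.15), and Hspg2, the matrix proteoglycan perlecan, with log2 fold changes of -0.29 in serum/LIF+2i and 0.21 in 2i/LIF (difference -0.50 ± 0.05).

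**Figure D5:**
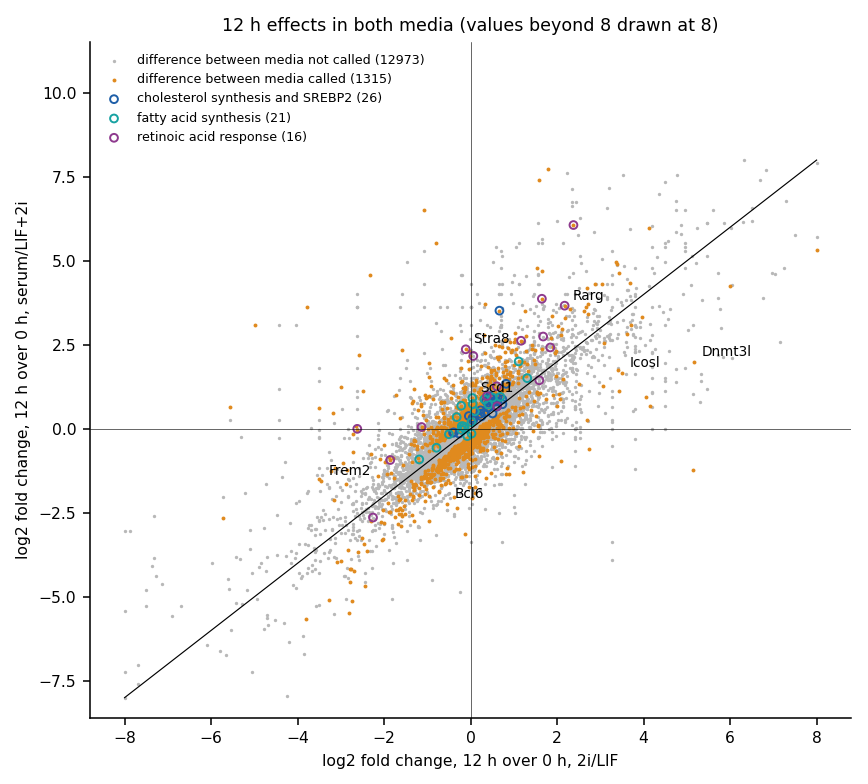
Log2 fold change at 12 h against 0 h in serum/LIF+2i (y axis) and 2i/LIF (x axis), with 1 point per tested gene and both axes clipped at 8. Genes with a called difference between the media (1315) are coloured, and 4921 of the 4984 genes called in both media lie in the lower left or upper right quadrant.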

How the data were processed

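RNA extracted with TRIzol was sequenced from stranded poly(A) libraries, per the labels' protocols. Per the submitters' processing notes, the tools were fastp, STAR and featureCounts and the genome build was mm10; versions, gene annotation and strand setting are not given in the sources used here. The authors deposited 1 table of whole-number counts per gene, not normalized, with 0 value columns left unused; 5836 of 27179 genes had 0 counts everywhere. Without a stated strand setting, genes whose RefSeq span overlaps that of another counted gene are uncertain, among them Acaca, Actn4, Bhlhe40, Bmp4, Ccnd2, Ccnd3, Cldn3, Col4a1, Ctsb, Ddit3, Dhrs3, Dnmt3a, Dnmt3l, Eef2, Foxp1, Glb1, Hexa, Hk1, Hspa5, Hspa8, Lss, Me1, Ncl, Pax6, Rnf43, Shmt2, Slc43a2, Slc7a3, Slc7a7, Sox2, Srebf1, Timp3, Tm7sf2, Tpi1, Trpm1 and Usp44.

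Genes were kept by edgeR 4.0.16's filterByExpr (minimum count 10, minimum total 15), scaled by TMM, and tested in R 4.3.3 with the robust quasi-likelihood F test (two-sided) in 1 model of all 16 libraries with a term per group and 8 residual degrees of freedom. Benjamini-Hochberg adjustment ran over the 14288 genes, and adjusted p under 0.05 was called. Standard errors came from F and the fold change, and the spread between replicates (edgeR's common coefficient of biological variation) was 3.19%. Comparisons were 12 h against 0 h in each medium, the difference between these effects (interaction), and 24 h against 12 h for named genes. Floors and fold bounds (3 counts per library) cover counting error only, since reads carry no molecular identifiers. Data were simulated with 100 planted genes of each size among 14288, changed in 1 group, and all other genes equal in every group. The test recovered 84% of 2-fold and 94% of 4-fold changes in the 12 h comparison. In the interaction it recovered 70% and 89%, with 9 unchanged genes called in each comparison. The real 12 h comparison called 51.2% of genes, so the simulation does not show how scaling and false calls behave at that share.

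The members and the 37 gene lists were chosen with earlier results of these data known. Named genes are list anchors, list members with the smallest adjusted p, the largest changes by fold, level and interaction, and genes entering or leaving the floor; further list members were named after their values were seen, and a few named genes are not reported here. Alternatives were DESeq2 1.42.0, its size factors, library size only, other filters, no ribosomal RNA genes, the 4 libraries alone, a replicate block and leaving out each library. Same-numbered libraries of different times did not deviate together (correlation 0.03 over 10769 genes), so numbers were not used as pairs.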

Additional observations from a re-analysis of the deposited data

Results flagged for a closer look

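The 12 h effect differed between serum/LIF+2i and 2i/LIF for 1315 genes by edgeR's interaction test. Groups of 2 libraries are too small for a test of single outlying libraries. Among the genes for which the report gives this difference, the effect in serum/LIF+2i was the more positive, with these differences on the log2 scale: Stra8 2.48, Porcn 2.23, Rac2 2.08, Dusp6 1.51, Rarg 1.49, Abcg1 1.45, Etv4 1.21, Gbx2 1.17, Dnmt3a 1.13, Scd1 0.88, Scd2 0.69, Srebf1 0.67, Fads2 0.56, Lss 0.52, Cyp51 0.46, Hmgcs1 0.30 and Klf5 0.28. It was the more negative with these differences: Dnmt3l -3.17, Icosl -1.83, Trpm1 -1.83, Usp44 -1.78, Dppa3 -1.26, Klf4 -0.96, Hexa -0.88, Glb1 -0.67, Hspg2 -0.50 and Nanog -0.46. Each had an adjusted p under 0.05 and is listed because 2 media gave different effects under the same contrast. Leaving out any 1 of the 8 libraries, or testing with DESeq2, changed none of these calls but that of Klf5, which DESeq2 and 5 of the 8 omissions lost.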

How the results depend on the processing

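Every alternative kept the direction of each named gene's called 12 h effect. The number of genes called at 12 h in serum/LIF+2i was 7309, and 5568 with DESeq2; it ranged from 6235 to 6494 when 1 library was left out, and was 6838 when only these 4 libraries were fitted. In 2i/LIF it was 6382, with a range of 5200 to 5451. A minimum absolute log2 fold change of 1 left 2128 and 1755 genes. Of the 1315 genes with a called interaction, that minimum left 232 and DESeq2 called 539, and leaving out 1 library gave 931 to 1105. Over all lists, 539 members were called at 12 h (178 with the minimum fold change, 496 to 515 with 1 library left out) and 184 in the interaction (28 with the minimum, 115 with DESeq2, 140 to 177 with 1 library left out). With the replicate number as a block, 7314 genes were called in serum/LIF+2i, 6411 in 2i/LIF and 1344 in the interaction; the samples share only a number, and their deviations correlated at 0.03 in serum/LIF+2i and 0.01 in 2i/LIF. Over the remaining recomputed values of single genes, list counts and list medians, 12267 kept their direction and side of the threshold (or stayed within the range allowed for counts and medians), 303 lost a call, 91 gained one and 503 counts or medians moved, with 0 reversed. Depth limits the genes below about 1 CPM, such as Egr1 and Zcchc12.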
